A study of Mus musculus with 12 samples.

Results

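DNA replication and mitosis genes were followed in M1-activated bone marrow-derived macrophages (BM-Mɸs) of mice with and without a myeloid deletion of ErbB4, a receptor tyrosine kinase that binds neuregulins. The 48 genes, of 22243 genes with values, cover origin licensing, helicase activation, DNA polymerases with their clamp and clamp loader, nucleotide supply, G1 cyclins with their kinases and E2F1, inhibitors of cell cycle entry, mitotic cyclins with CDK1, and the mitotic machinery, and they were chosen by name and not by their values. The 12 libraries form 6 pairs of littermates on a C57Bl/6 background. In each pair 1 library was labelled ErbB4myeKO (floxed ErbB4 alleles with LysMCre, which drives deletion in myeloid cells) and 1 was labelled ErbB4FF (the same floxed alleles alone). All cultures were grown from marrow in CMG14-12 conditioned medium, a source of M-CSF, then given 100 U/mL IFN-γ for 16 h and 100 ng/mL LPS for 6 h, so that no unactivated culture is among them. Sex and age of the mice are not on the labels, and the litter number coincides with the batch label, so that litter, culture and batch cannot be told apart.

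Before S phase, CDC6 and CDT1 load the MCM2-7 helicase onto origins, and CDC45 and the GINS complex turn it on. PCNA is the ring that holds the polymerases on DNA and is placed by the RFC clamp loader, while ribonucleotide reductase, thymidylate synthase and thymidine kinase supply nucleotides. Passage through G1 depends on D-type cyclins with CDK4 and CDK6 and on cyclin E with CDK2, which inactivate RB1 and release E2F1, and is restrained by the CDK inhibitors p21 (Cdkn1a) and p27 (Cdkn1b). M-CSF keeps bone marrow macrophages dividing in culture, and activation by interferon-γ and LPS is known to arrest them in G1 with p21 raised.

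Replication and mitosis genes are known for different promoter elements, and the stretches below are shown because the licensing genes and the mitosis genes divided along them. Windows of 250 bases before to 50 bases after the start were taken from RefSeq (GRCm38.p6), where 37 of the 48 genes had 40 windows. An E2F element was searched as TTTCCCGC, TTTCGCGC, TTTGCCGC or TTTGGCGC, and a CHR, the element of genes that peak in mitosis, as TTTGAA or TTCGAA, both on either strand. Matches of the E2F element can overlap each other on opposite strands, and in Mcm5 and Mcm6 they did. The E2F element was in 22.5% of the members' windows and in 2.26% of all 32851 RefSeq mouse windows, the CHR in 32.5% and 19.2%, and a CCAAT box (the letters CCAAT) in 65% and 37.4%. Of the licensing genes with a window, 6 of 7 held the E2F element (Mcm3, Mcm5, Mcm6, Mcm7, Cdc6 and Cdt1) and 2 of 7 held a CHR (Mcm2 and Mcm7). Of the mitosis genes with a window, 0 of 9 held the E2F element and 8 of 9 held a CHR. Among the 3 mitotic cyclin and CDK1 genes with a window, Cdk1 held an E2F element (position -131), and Cdk1 and Ccnb2 held a CHR. A match is a description of letters and was not tied to binding of any factor. In the licensing genes below, capitals mark an E2F element, written 5′ to 3′ on the strand of the gene, with its position counted from the start of the gene.
Mcm5, position -153, chr8:75109330-75109389, plus strand: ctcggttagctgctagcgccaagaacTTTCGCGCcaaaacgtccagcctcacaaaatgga
Mcm6, position -110, chr1:128359782-128359841, minus strand: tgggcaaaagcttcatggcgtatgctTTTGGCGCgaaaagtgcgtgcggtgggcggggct
Mcm7, position -165, chr5:138172015-138172074, minus strand: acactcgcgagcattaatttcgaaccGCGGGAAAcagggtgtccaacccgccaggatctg
Cdc6, position -138, chr11:98907987-98908046, plus strand: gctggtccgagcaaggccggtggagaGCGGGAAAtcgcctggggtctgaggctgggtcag

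In the mitotic genes below, capitals mark a CHR. Each of these genes holds further copies, left in lower case where they fall in the stretch.
Mki67, position -116, chr7:135716464-135716521, minus strand: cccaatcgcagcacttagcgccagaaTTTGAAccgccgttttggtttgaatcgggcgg
Top2a, position -179, chr11:99024337-99024394, minus strand: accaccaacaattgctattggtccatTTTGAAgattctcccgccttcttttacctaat
Cdk1, position -71, chr10:69352952-69353009, minus strand: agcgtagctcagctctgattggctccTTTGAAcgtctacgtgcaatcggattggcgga
Bub1b, position -188, chr2:118597997-118598054, plus strand: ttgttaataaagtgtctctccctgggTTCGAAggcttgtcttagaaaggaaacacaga

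Values are TPM, a relative abundance scaled by transcript length, so that levels can be set side by side between genes, but they carry no read depth. Between 10214 and 12985 genes were above 0 in a library, with the fewest in litter 3. Erbb4 itself lay between 0.28 and 0.852 TPM in all 12 libraries and was higher in the library labelled ErbB4myeKO in 4 of 6 litters, so that it did not check the labels. LysMCre is inserted in Lyz2, whose ErbB4myeKO level was between 0.434 and 0.57 times that of the littermate in litters 1 to 5 and 2.7 times in litter 6, against the labels of that litter. The 9 M1 activation markers together were higher in the library labelled ErbB4myeKO in 5 of 6 litters, litter 6 among them (22967 against 18574 TPM). In litter 3 the sums were close (49772 and 49447 TPM). The level of these markers is itself an outcome of the genotype comparison, so that it did not check the labels. The labels were kept as given, and the genotype results of the genes given in every library are shown with and without litter 6. Macrophage markers were high in every library (6 of 6 markers tested, together between 1578 and 2466 TPM). Erythroid, lymphocyte and progenitor markers summed to at most 1.11, 2.28 and 2.52 TPM in any library.

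The clearest feature of the levels was that the inhibitor p21 stood far above the genes that carry out replication and mitosis. Cdkn1a (ENSMUSG00000023067, chr17:29090976-29100727 in GRCm38) had the highest mean, 947 TPM, which was 5.9 times that of Pcna, the next gene. In litters 1 to 6, Cdkn1a was 1093, 893, 1666, 927, 663 and 594 TPM in the libraries labelled ErbB4myeKO and 1051, 603, 1661, 850.3, 724 and 633 TPM in those labelled ErbB4FF. Both libraries of litter 3 were highest, and the genotypes overlapped. Pcna (ENSMUSG00000027342, chr2:132249162-132253314), the sliding clamp of replication and repair, was 169, 107, 207, 137, 181 and 144 TPM in ErbB4myeKO and 177, 113, 183, 122, 191 and 195 TPM in ErbB4FF libraries of litters 1 to 6. Ccnd2 (ENSMUSG00000000184, chr6:127125162-127152193), the D cyclin with the highest level, was 192, 144, 138, 166, 47.6 and 62.2 TPM in ErbB4myeKO and 191, 132, 147, 129, 47.7 and 62.3 TPM in ErbB4FF libraries. Littermates were close to each other in Ccnd2, and litters 5 and 6 were low in both genotypes. The Y-linked Ddx3y and Eif2s3y were listed at 0 in these same 4 libraries and at 9.81 TPM or more in the other 8, so that for a gene that sets litters 5 and 6 apart litter and the sex of the mice cannot be told apart.

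The other genes were much lower. Means were above 100 TPM in 3 genes, between 10 and 100 TPM in 6 (Cdkn1b, Stmn1, Ccnd3, Mki67, Cdk4 and Ccnd1), between 1 and 10 TPM in 28 and below 1 TPM in 11. In bulk RNA, fewer dividing cells and less RNA per dividing cell cannot be told apart. The 6 MCM genes, whose products form 1 ring, had means from 1.49 TPM (Mcm2) to 8.19 TPM (Mcm3). Cdk1, the kinase of mitotic entry, had a mean of 7.33 TPM, whereas its partners Ccnb2, Ccna2 and Ccnb1 had 1.68, 1.18 and 0.723 TPM. The 11 genes below 1 TPM were Cdc6, Cdc45, Pola1, Pole, Rfc1, Rfc2, Ccnb1, Cdc20, Bub1, Bub1b and Aurka, and they were not tested for differences. Aurka was listed at 0 in 10 of 12 libraries, but its single listed transcript shared all of its 31-base words with annotated transcripts of the gene that the table does not list (100%). For Rfc1 that share was 99%, and it was listed at 0 in 3 libraries and close to 0 in some others, so that RNA of these 2 genes may not be shown by the listed transcripts. The same limit holds for Tyms (99.9%), Cdk2 (99.8%), Cdt1 (99.5%), Rfc4 (98.6%), Cdc45 (98.4%), Mcm6 (98.3%), Mcm3 (97.2%), Cdc6 (93.3%), Ccnb1 (93.2%) and Gins2 (93%), also where a library is listed at 0. The table listed 62 transcripts of the 48 genes, with 1 transcript alone for 40 of them.

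**Figure D1:**
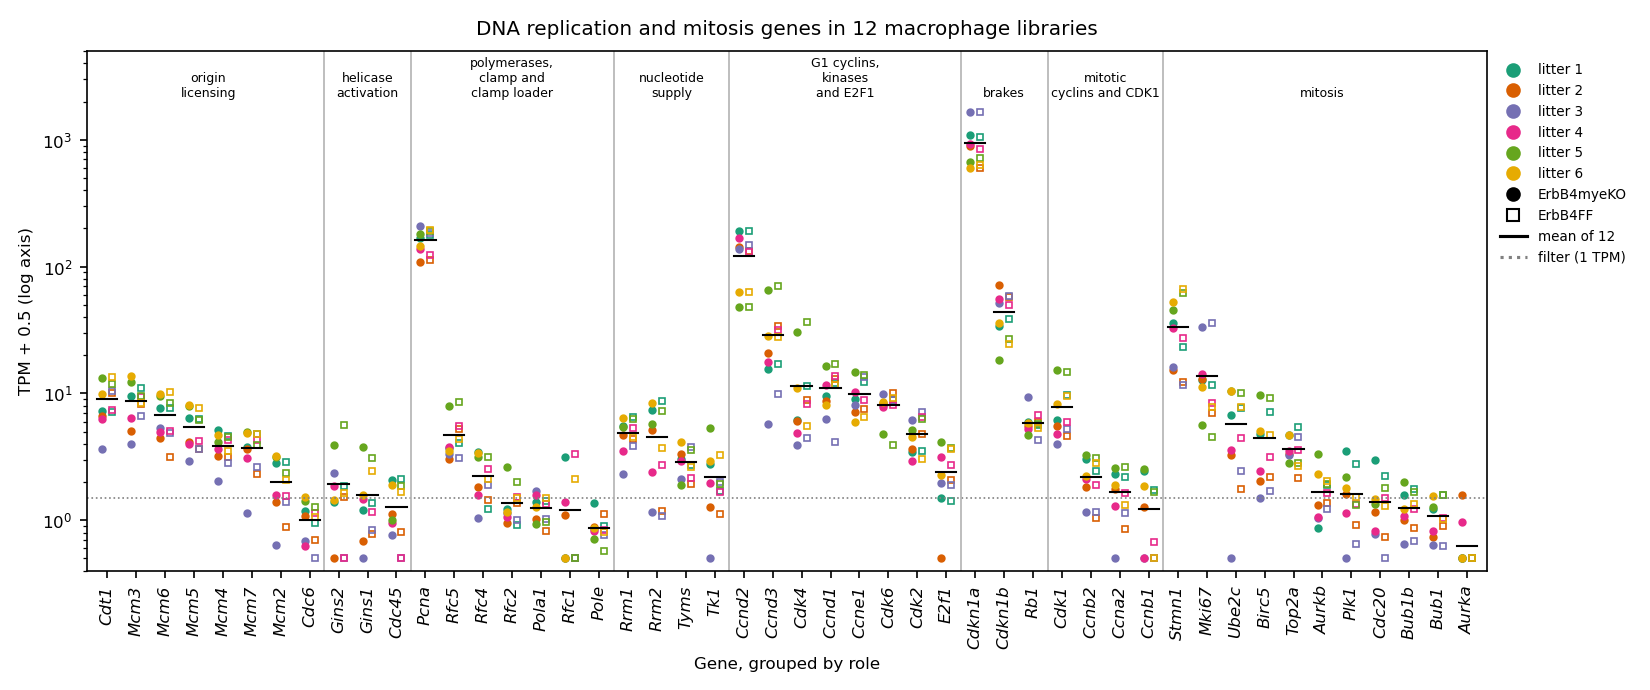
TPM + 0.5 on a log axis for each of the 48 genes, grouped by role. Each point is a library (circles ErbB4myeKO, squares ErbB4FF, colours by litter), the black bar is the mean of 12 libraries and the dotted line the filter at a mean of 1 TPM. Cdkn1a, Pcna and Ccnd2 stand above 100 TPM on average, while 11 genes have means below the filter.

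The first comparison asked whether deletion of ErbB4 in macrophages went with a change in these genes. None of the 37 tested genes passed an adjusted p of 0.05 in limma (Benjamini-Hochberg over 8780 genes, smallest adjusted p 0.603), nor did any gene of the table (0%). At an unadjusted p under 0.05 stood 2 of 37 members, or 5.41%, against 8.21% of all genes. These were Mki67, which was higher in ErbB4myeKO (3.83% of all genes), and Ccnd3, which was lower (4.38% of all genes). The median log2 ratio of ErbB4myeKO to ErbB4FF over the 37 genes was -0.02, against -0.00068 over all genes, with 18 genes above 0 and 19 below it. Of all genes tested, 49.8% had a ratio above 0. No member moved in the same direction in all 6 litters, against 4.82% of all genes. The mean ratio was smaller than its SD over litters in 35 of 37 genes. Standard errors ran from 0.07 to 0.53 on the log2 scale (median 0.20), so that differences of the size of these errors were not detectable here.

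**Figure D2:**
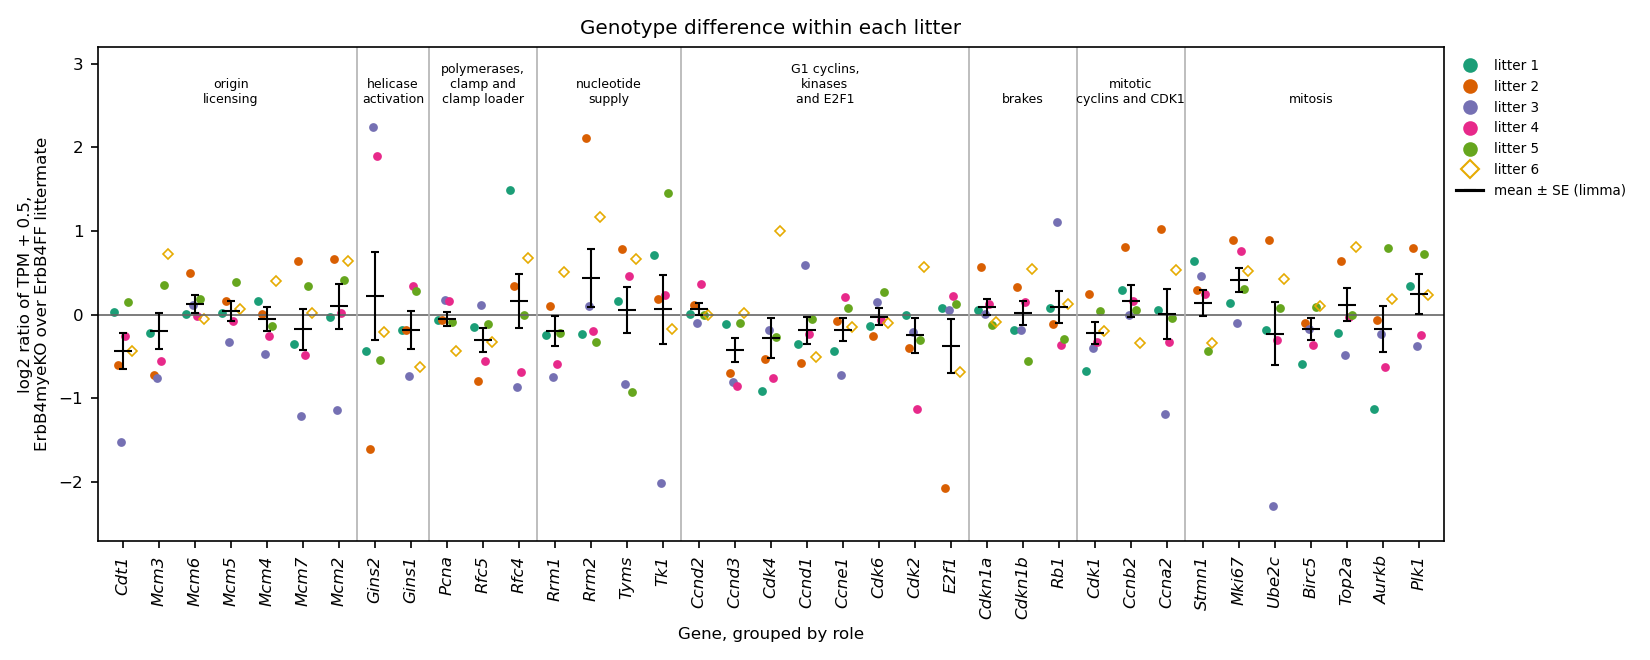
log2 ratio of TPM + 0.5, ErbB4myeKO over the ErbB4FF littermate, for the 37 tested genes. Each point is a litter (litter 6 as open diamonds, since its Lyz2 level runs against its labels), and black bars are the mean with its SE from limma. Points of most genes lie on both sides of 0, and Mki67 and Ccnd3 each have 5 of 6 litters on 1 side.

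Among the mitosis genes, Mki67 had the smallest p. It encodes Ki-67, which coats mitotic chromosomes and is the usual marker of cycling cells. Mki67 (ENSMUSG00000031004, chr7:135689784-135716361) was 12.3, 12.5, 32.8, 13.7, 5.14 and 10.8 TPM in ErbB4myeKO and 11.1, 6.5, 35.2, 7.86, 4.07 and 7.36 TPM in ErbB4FF libraries of litters 1 to 6. The ErbB4myeKO library was the higher of its pair in 5 of 6 litters, yet the spread between litters was wider than that between genotypes. The log2 ratio was 0.42 ± 0.14 (SE, 6 litters; limma p = 0.0201, adjusted p = 0.603; two-sided exact permutation p = 0.0625, where 64 swaps of littermates allow no p below 0.0312). Without litter 6 it was 0.40 ± 0.17 (p = 0.0518, adjusted p = 0.767, exact permutation p = 0.125). The other 6 tested mitosis genes had ratios between -0.23 (Ube2c) and 0.25 (Plk1), with adjusted p-values from 0.708 to 0.864. Top2a, which untangles chromosomes, was at 0.12 ± 0.20, and Aurkb and Birc5, subunits of the chromosomal passenger complex, were at -0.17 ± 0.27 and -0.17 ± 0.14, and Birc5 was at -0.09 without litter 1. Without litter 6 Top2a was at -0.02 and Aurkb at -0.25.

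Among the G1 genes, Ccnd3 had the smallest p. Cyclin D3 activates CDK4 and CDK6 as cyclin D2 does. Ccnd3 (ENSMUSG00000034165, chr17:47505051-47599691) was 15.1, 20.4, 5.23, 17.1, 65.1 and 27.9 TPM in ErbB4myeKO and 16.4, 33.3, 9.49, 31.2, 69.5 and 27.5 TPM in ErbB4FF libraries of litters 1 to 6. ErbB4myeKO was lower in 5 of 6 litters, by the most in litters 2, 3 and 4, and the level in litter 5 was far above the rest in both genotypes. The log2 ratio was -0.42 ± 0.15 (SE, 6 litters; limma p = 0.0208, adjusted p = 0.603; exact permutation p = 0.0625). Of the 8 G1 genes, 7 had ratios below 0 (median -0.22), with Ccnd2 the exception at 0.06 ± 0.07.

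Without litter 6 the G1 group had a median of -0.25, again with 7 of 8 genes below 0, and the largest move in it was that of Cdk4. Without that litter, Cdk4, Ccnd3 and Cdk2 were lower in ErbB4myeKO in 5 of 5 litters and Ccnb2, a mitotic cyclin, was higher in 5 of 5, against 8.01% of all genes with 1 direction in the 5 litters. In litter 3 the log2 ratio of Ccnb2 was only 0.0022. Its ratio without litter 6 was 0.27 ± 0.20 (limma p = 0.236, adjusted p = 0.797, exact permutation p = 0.0625). Cdk4 (chosen after its values were seen) was 5.65, 5.60, 3.42, 4.34 and 30.0 TPM in ErbB4myeKO and 11, 8.32, 3.96, 7.68 and 36.1 TPM in ErbB4FF libraries of litters 1 to 5, but 10.6 and 5.03 TPM in litter 6. Its log2 ratio was -0.27 ± 0.24 with all litters (p = 0.286, adjusted p = 0.728, exact permutation p = 0.375) and -0.53 ± 0.14 without litter 6 (p = 0.00767, adjusted p = 0.767, exact permutation p = 0.0625). Ccnd3 was at -0.51 ± 0.15 without litter 6 (p = 0.0125, adjusted p = 0.767), and Cdk2, named for the same reason as Cdk4, at -0.41 ± 0.19 (p = 0.0662, adjusted p = 0.767), each with an exact permutation p of 0.0625. These 5 litters allow no exact permutation p below 0.0625. With 2 of 36 members (5.56%) and 5.82% of all genes at p under 0.05, the share of members was near that of the table. Over these 36 members the median ratio was -0.08, with 14 above 0 and 22 below. Cdt1, Rfc5 and Cdk1 stayed at -0.44, -0.29 and -0.22 without litter 6, while E2f1 was at -0.31, Ccnd1 at -0.12, Cdkn1b at -0.09, Rb1 at 0.09, Cdkn1a at 0.13 and Mcm5 at 0.04. Pcna turned from -0.05 to 0.02, Ccnd2 was at 0.08, Stmn1 moved from 0.15 to 0.24 (and to 0.05 without litter 1), Birc5 was at -0.23, and Gins1 fell below the filter. None of these had an adjusted p below 0.767 in limma.

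E2f1 and Ccnd1 were named for their roles. E2f1 (ENSMUSG00000027490, chr2:154559407-154569892), the transcription factor of S phase genes, was 1.00, 0, 1.48, 2.67, 3.60 and 1.77 TPM in ErbB4myeKO and 0.918, 1.59, 1.40, 2.21, 3.25 and 3.16 TPM in ErbB4FF libraries. Its ratio of -0.38 ± 0.33 (adjusted p = 0.727) rested on litter 2, where 1 library was listed at 0, and was -0.04 without that litter. Ccnd1 (ENSMUSG00000070348, chr7:144929931-144939925), the D cyclin most often tied to growth factor signals, was 9.02, 8.2, 5.74, 11.2, 16.1 and 7.65 TPM in ErbB4myeKO and 11.6, 12.5, 3.64, 13.2, 16.7 and 11.1 TPM in ErbB4FF libraries. It was lower in ErbB4myeKO in 5 of 6 litters and higher in litter 3, at -0.19 ± 0.16 (adjusted p = 0.724), and its ratio was -0.34 without litter 3 and -0.11 without litter 2.

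No inhibitor passed the test for genotype. Cdkn1a was at 0.09 ± 0.09 (SE; p = 0.375, adjusted p = 0.778; exact permutation p = 0.562), and without litter 2 its ratio was -0.01. Cdkn1b and Rb1 were at 0.02 ± 0.14 and 0.09 ± 0.20, with 3 litters up and 3 down in each. The Rb1 ratio rested on litter 3, where it was 1.11, against ratios from -0.36 to 0.13 in the other litters.

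Licensing genes gave ratios on both sides of 0, with 3 of 7 above it. Cdt1 (ENSMUSG00000006585, chr8:122568015-122573554), the loader of the MCM helicase, was 6.80, 6.18, 3.12, 5.75, 12.8 and 9.48 TPM in ErbB4myeKO and 6.62, 9.62, 9.92, 6.97, 11.4 and 12.9 TPM in ErbB4FF libraries of litters 1 to 6. The groups overlapped, and the widest gap was in litter 3. Its log2 ratio was -0.44 ± 0.21 (p = 0.0782, adjusted p = 0.603, exact permutation p = 0.125) and -0.22 without litter 3. Mcm5 (ENSMUSG00000005410, chr8:75109569-75128439), a subunit of the ring, was 5.85, 3.62, 2.41, 3.49, 7.51 and 7.61 TPM in ErbB4myeKO and 5.75, 3.17, 3.14, 3.68, 5.62 and 7.21 TPM in ErbB4FF libraries, at 0.04 ± 0.12 (adjusted p = 0.92). Littermates lay closer to each other than litters did.

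In the remaining groups too no gene passed. In helicase activation Gins1 (ENSMUSG00000027454, chr2:150905400-150931280), a GINS subunit, was 0.709, 0.182, 0, 0.969, 3.29 and 1.09 TPM in ErbB4myeKO and 0.87, 0.276, 0.333, 0.653, 2.61 and 1.95 TPM in ErbB4FF libraries, at -0.18 ± 0.23 (adjusted p = 0.819), with -0.07 without litter 3 and -0.29 without litter 4. In the clamp loader Rfc5 (ENSMUSG00000029363, chr5:117378103-117389047) was 3.18, 2.53, 2.85, 3.26, 7.42 and 3.0 TPM in ErbB4myeKO and 3.56, 4.72, 2.58, 5.02, 8.04 and 3.87 TPM in ErbB4FF libraries, at -0.30 ± 0.14 (p = 0.0756, adjusted p = 0.603, exact permutation p = 0.0938). Rfc5 was lower in ErbB4myeKO in 5 of 6 litters, and both libraries of litter 5 were far above the rest. In nucleotide supply Rrm2 (ENSMUSG00000020649, chr12:24708241-24714146), the regulated subunit of ribonucleotide reductase, was 6.91, 4.65, 0.659, 1.88, 5.29 and 7.84 TPM in ErbB4myeKO and 8.18, 0.686, 0.574, 2.22, 6.78 and 3.21 TPM in ErbB4FF libraries. Its ratio of 0.44 ± 0.34 (adjusted p = 0.707) was 0.11 without litter 2 and 0.30 without litter 6. Cdk1 (ENSMUSG00000019942, chr10:69335146-69352938) was 5.65, 4.99, 3.5, 4.29, 14.8 and 7.76 TPM in ErbB4myeKO and 9.26, 4.13, 4.78, 5.50, 14.4 and 8.96 TPM in ErbB4FF libraries, at -0.22 ± 0.13 (p = 0.146, adjusted p = 0.652, exact permutation p = 0.188), and at -0.13 without litter 1. Pcna and Ccnd2 were at -0.05 ± 0.09 and 0.06 ± 0.07 (adjusted p = 0.866 and 0.787), and Ccnd2 was at 0.0045 without litter 4.

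Transcripts of Mcm5 were taken singly, since 1 of them was already known from these data to differ between the labels, so that its difference is no independent evidence. The 3 listed transcripts share the same coding exons and differ at their first exon and in their untranslated ends. ENSMUST00000212426 (2604 bases) has 18 31-base words of its own of 2574, all at its 5′ end, and ENSMUST00000212811 (2653 bases) has 74 of 2623, so that the split of reads between them rests on few positions. ENSMUST00000212426 was 5.85, 3.44, 2.41, 3.35, 3.30 and 3.08 TPM in ErbB4myeKO libraries of litters 1 to 6. In ErbB4FF libraries it was 2.43 and 0.704 TPM in litters 1 and 2, 5.36 TPM in litter 5, and at or next to 0 in litters 3, 4 and 6. It was higher in ErbB4myeKO in 5 of 6 litters and lower in litter 5, with a log2 ratio of 1.75 ± 0.49 (p = 0.00893, adjusted p = 0.685 over 10085 transcripts, of which 6.72% had an unadjusted p under 0.05; exact permutation p = 0.0625). ENSMUST00000212811 was 0 in litters 1 to 4 and 4.07 and 4.17 TPM in litters 5 and 6 in ErbB4myeKO, and 3.10, 2.30, 3.14, 3.68, 0 and 6.59 TPM in ErbB4FF libraries. It ran opposite to the first transcript, at -1.45 ± 0.86 (p = 0.135, adjusted p = 0.701; exact permutation p = 0.25), so that the gene sum given above hardly differed. Without litter 5 the ratios were 2.23 and -2.37, and without litter 6 they were 1.54 and -1.61. Since several libraries were at or next to 0, the ratios also depended on the 0.5 added to TPM. They were 2.91 and -2.52 with 0.1 added, and 1.29 and -1.04 with 1 added. ENSMUST00000164309 (3381 bases, 795 own words of 3351) reached at most 0.617 TPM and was below the filter.

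**Figure D3:**
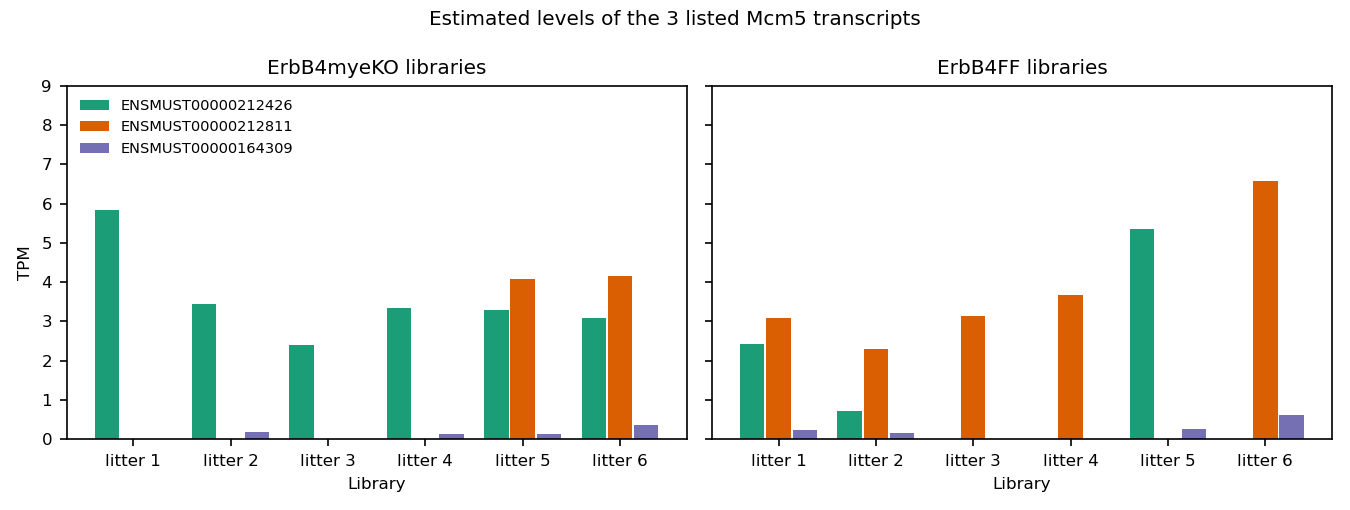
TPM of the 3 listed Mcm5 transcripts by library, ErbB4myeKO on the left and ErbB4FF on the right. ENSMUST00000212426 takes all or nearly all of the gene in ErbB4myeKO libraries of litters 1 to 4 and in the ErbB4FF library of litter 5, while ENSMUST00000212811 leads in the other ErbB4FF libraries.

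The second comparison asked how these genes varied between litters, beside genotype. In the limma F test of litter, 21 of 37 members passed an adjusted p of 0.05 (56.8%), against 44.9% of all genes. The share of a gene's variance that lay between litters had a median of 83.2% over the members and 78.1% over all genes. Litter calls were in 2 of 7 licensing genes (Mcm5 and Mcm6), 1 of 2 of helicase activation (Gins1), 2 of 3 of polymerases and clamp (Pcna and Rfc5), 1 of 4 of nucleotide supply (Rrm2), 6 of 8 G1 genes (Ccnd1, Ccnd2, Ccnd3, Cdk4, Cdk6 and Ccne1), 2 of 3 inhibitors (Cdkn1a and Cdkn1b), 2 of 3 mitotic cyclin genes (Cdk1 and Ccnb2) and 5 of 7 mitosis genes (Mki67, Birc5, Stmn1, Plk1 and Ube2c). Without litter 5, 9 of 33 members (27.3%) and 11.5% of all genes passed, so that many of the calls rested on that litter. These 9 were Mcm5, Mcm6, Ccnd2, Ccnd3, Cdkn1a, Cdkn1b, Birc5, Mki67 and Stmn1, and all 9 were among the 21. With the level of Y-linked genes as a further term, which itself varied almost wholly between litters, 5 of 37 members (13.5%) and 9.53% of all genes passed. These were Cdk4, Ccnd3, Cdkn1a, Mki67 and Birc5.

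Litters 3 and 5 stood at opposite ends. Litter 3 had the lowest litter mean in 23 of 37 members (62.2%), against 29.9% of all genes, and litter 5 had the highest in 18 of 37 (48.6%), against 34.3% of all genes. Not all replication and G1 genes were low in litter 3. Pcna and Cdk2 had their highest litter mean there (litter F test adjusted p = 0.0158 and 0.244). Birc5 (ENSMUSG00000017716, chr11:117849251-117855743), which encodes survivin, was 4.29, 1.54, 1.00, 1.97, 9.29 and 4.56 TPM in ErbB4myeKO and 6.69, 1.69, 1.19, 2.66, 8.70 and 4.20 TPM in ErbB4FF libraries of litters 1 to 6. Both genotypes ranked litter 5 first and litter 3 last, and the litter means spanned 2.58 on the log2 scale (F test adjusted p = 0.00123). Stmn1 (ENSMUSG00000028832, chr4:134468320-134473843), whose product destabilizes microtubules, was 35.5, 14.7, 15.5, 32.1, 45.1 and 52.1 TPM in ErbB4myeKO and 22.6, 11.9, 11.1, 27, 60.9 and 66.2 TPM in ErbB4FF libraries (range 2.12, adjusted p = 0.00258). Litters 2 and 3 were low in both genotypes, and litters 5 and 6 were high.

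Mki67 ran the other way from Birc5 and Stmn1. Its litter range was 2.76 on the log2 scale (adjusted p = 0.00198), or 1.26 without litter 3 (adjusted p = 0.0192), with 32.8 and 35.2 TPM in litter 3, where it was highest, and 5.14 and 4.07 TPM in litter 5, where it was lowest. Top2a, which did not pass the litter test (adjusted p = 0.267), was highest in litter 1 and lowest in litter 2, and followed neither order. In the ErbB4myeKO library of litter 3, which had the fewest genes above 0 of all libraries (10214), Ube2c, which drives exit from mitosis, Plk1, Ccna2, Ccnb1, Tk1 and Gins1 were listed at 0. Over the 13 genes of mitosis and mitotic cyclins other than Mki67 and Stmn1, the summed level was 9.03 and 14.4 TPM in litter 3 and 51.0 and 46.7 TPM in litter 5. Cdk1, Ube2c and Birc5 weighed most in this sum, with the highest means of the 13 genes (7.33, 5.27 and 3.98 TPM). Their transcripts are short (1278, 967 and 947 bases), whereas that of Mki67 has 10061 bases. Over all tested genes of at most 1500 bases the median deviation in litter 5 was 0.73. The part of transcript length in the sum was not tested. In litter 2 the sum was also low, 19.9 and 11.9 TPM, and there Mki67 was 12.5 and 6.5 TPM, so that a low sum did not always go with high Mki67.

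Cdkn1a and Cdkn1b also ran against most of the cycle genes in litters 3 and 5. The mean of centred log2 values over Cdkn1a, Cdkn1b and Rb1 was 0.50 in litter 3 and -0.46 in litter 5, against -0.66 and 0.45 over the licensing genes and -0.81 and 0.84 over the mitotic cyclin genes. Rb1 did not pass the litter test (adjusted p = 0.971), and its highest and lowest library were both in litter 3, with 8.84 TPM in ErbB4myeKO and 3.83 TPM in ErbB4FF. The litter range of Cdkn1a was 1.44 (adjusted p = 0.00316), or 0.80 without litter 3 (adjusted p = 0.0428). Cdkn1b, with 17.7 and 26.3 TPM in litter 5 and 35.4 and 24.1 TPM in litter 6, was between 33.3 and 71.2 TPM in the other 8 libraries (range 1.53, adjusted p = 0.0099). The 9 M1 activation markers summed to 49772 and 49447 TPM in litter 3, the most of any litter, and to 14785 and 16490.1 TPM in litter 5, the least, and their part in these levels was not tested.

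**Figure D4:**
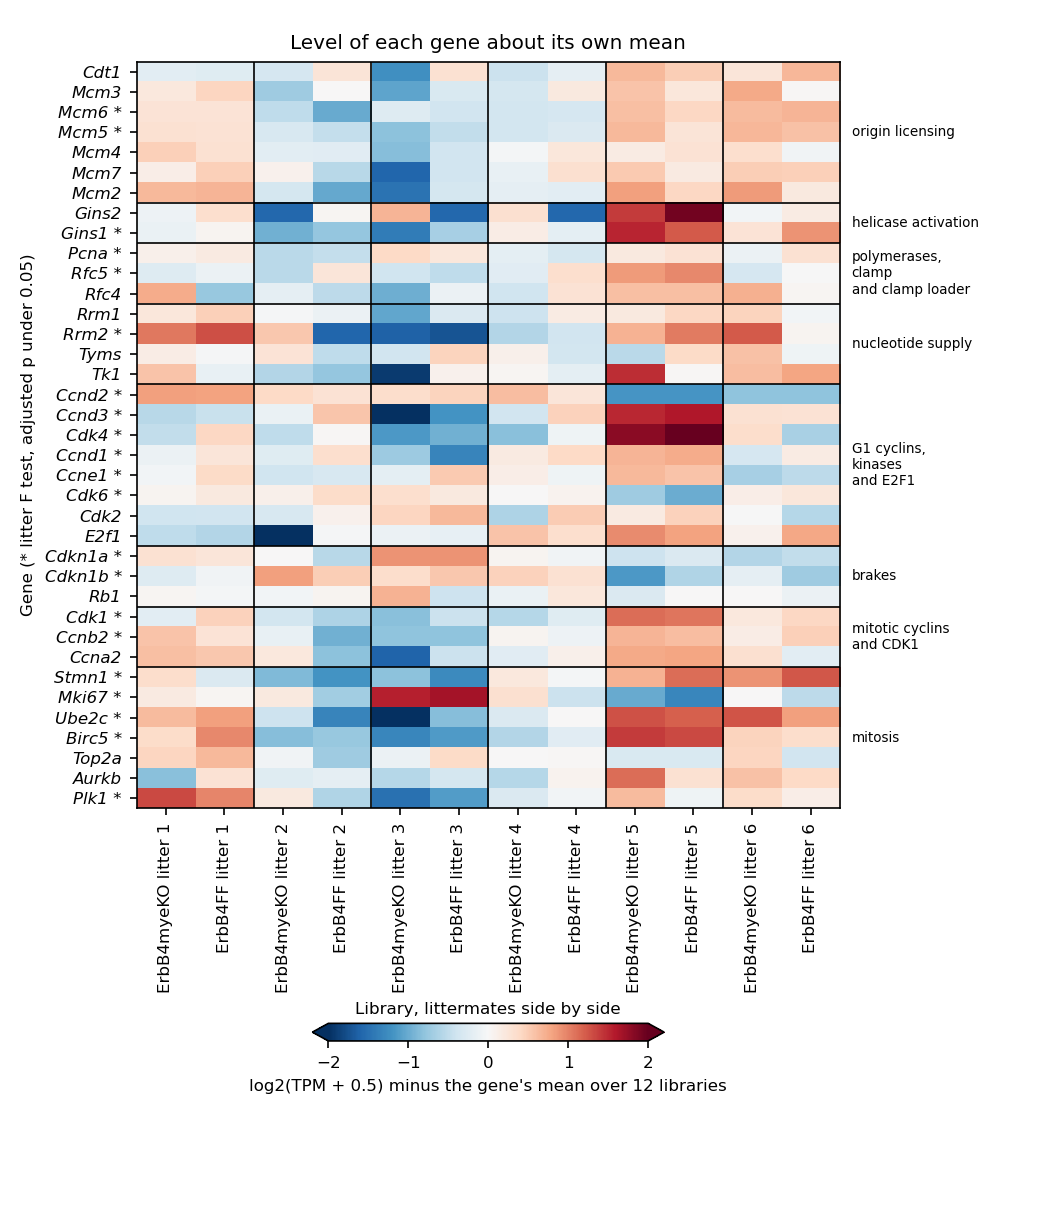
log2(TPM + 0.5) of each tested gene minus its mean over 12 libraries, red above and blue below, with littermates side by side. An asterisk marks an adjusted p under 0.05 in the litter F test. Litter 3 is mainly blue and litter 5 mainly red, with Mki67, Ccnd2, Cdk6, Cdkn1a and Cdkn1b in the opposite colours. Pcna and Cdk2 are above their means in both litters.

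Within the G1 group the make-up of the D cyclins in TPM, not corrected for transcript length, changed with litter. Ccnd2 gave between 61.7% and 92.6% of the D cyclin TPM in the 10 libraries of the other litters, but 37% and 35.6% in litter 5, where Ccnd3 gave 50.6% and 51.9%. Ccnd3 had a litter range of 3.16 (adjusted p = 0.00125), or 1.90 without litter 5 and 2.06 without litter 3, and Ccnd2 of 1.99 (adjusted p = 0.000358), the smallest adjusted p of the members. Their kinases changed likewise, with Cdk4 at 6.99 and 10.5 times the TPM of Cdk6 in litter 5 and between 0.364 and 1.31 times elsewhere. In each case the gene that gained in litter 5 had the shorter transcript. Lengths were 1977 bases for Ccnd3 and 6330 for Ccnd2, and 2053 for Cdk4 and 11122 for Cdk6. With the length trend of each library taken out, Ccnd2, Ccnd3 and Cdk4 passed the litter test (adjusted p = 0.00331, 0.00345 and 0.0258). Cdk6 did not pass it (adjusted p = 0.150). The part of length in these shares and ratios was not tested. The sum of the 3 D cyclins was 129 and 134 TPM in litter 5 and between 97.8 and 219 TPM elsewhere, so that the sum was not out of the range of the other litters. Ccnd1 (range 1.73, adjusted p = 0.0177, or 0.80 without litter 3) and Ccne1 (range 1.20, adjusted p = 0.0318) were also highest in litter 5.

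Transcript length moved with these litter differences. Over all 8780 genes, the Spearman correlation of a gene's deviation from its mean with transcript length was -0.52 in both libraries of litter 5, -0.12 and -0.30 in litter 6, and between 0.18 and 0.34 in the other 8 libraries. Over the 37 members it was -0.57 and -0.51 in litter 5, and these genes share each library. The 4 members over 5000 bases (Top2a, Ccnd2, Mki67 and Cdk6) had a median deviation of -1.20 in litter 5 against the other litters, beside -0.71 over 1349 genes of this length. The 7 members of at most 1500 bases had 1.31, beside 0.73 over 1753 genes. Between these lengths the medians were 0.71 for the 18 members of 1500 to 3000 bases beside 0.21 over all such genes, and 0.42 for the 8 members of 3000 to 5000 bases beside -0.24. With the length trend of each library taken out, an alternative chosen after seeing the data, 16 of 37 members (43.2%) and 32.3% of all genes passed the litter test, and Mki67, Ccnd2 and Ccnd3 were among them (adjusted p = 0.00935, 0.00331 and 0.00345). Pcna, Ccnd1, Cdk1, Cdkn1a, Birc5 and Stmn1 were also among the 16, while Cdk6, Gins1, Rrm2, Ccnb2 and Ube2c were not. In that order, the ranges of the latter went from 1.11 to 0.66, 2.41 to 1.53, 2.85 to 2.60, 1.44 to 0.92 and 3.22 to 2.37. The litter ranges shrank from 2.76 to 1.74 for Mki67, from 2.58 to 1.63 for Birc5 and from 1.72 to 0.96 for Cdk1. They widened from 1.44 to 1.84 for Cdkn1a, from 1.73 to 1.98 for Ccnd1 and from 0.82 to 0.99 for Pcna. The genotype ratios of Mki67 and Ccnd3 were then 0.34 and -0.39 (adjusted p = 0.639 for both).

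**Figure D5:**
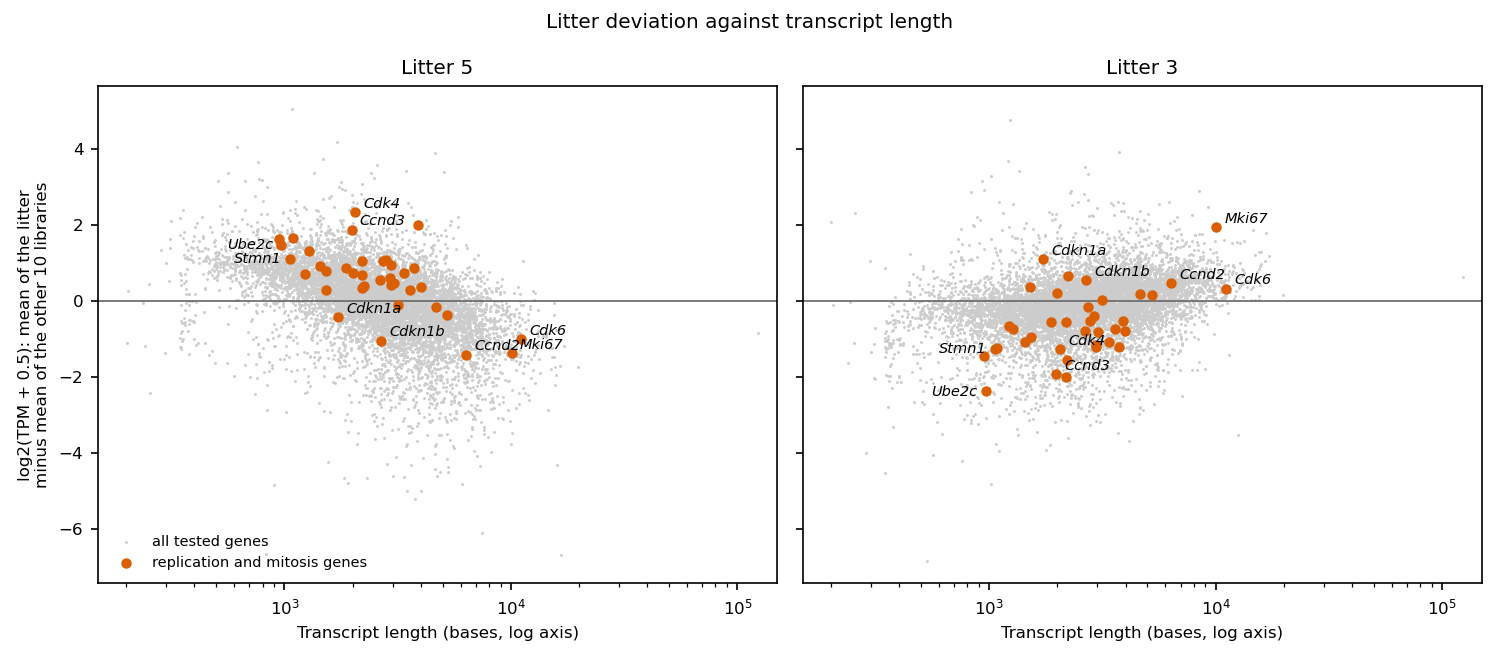
Mean log2(TPM + 0.5) of litter 5 (left) or litter 3 (right) minus that of the other 10 libraries, against transcript length on a log axis, with all 8780 tested genes in grey and the 37 members in orange. In litter 5 short transcripts lie mostly above 0 and long ones mostly below it, with Ccnd3 and Cdk4 well above 0. In litter 3 Mki67 and Cdkn1a lie above 0 and Ube2c below it.

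Markers of other cells varied beside them. Of 6 stromal markers 5 passed the filter, and their sum was between 13.5 and 107 TPM in ErbB4myeKO and between 16.7 and 116 TPM in ErbB4FF libraries, with Col3a1 at 0 in the ErbB4myeKO library of litter 3. Col1a1 was 1.09 and 5.94 TPM in litter 3 and 38.6 and 32.2 TPM in litter 1. In litter 1 the sum of the 6 MCM genes was 32.2 and 34.2 TPM, and in litter 3 it was 13 and 19.1 TPM. Other litters did not keep this order. The stromal sum was 71.8 and 31.1 TPM in litter 5, below the 107 and 116 TPM of litter 1. The sum of the 13 mitosis and mitotic cyclin genes was higher in litter 5, at 51.0 and 46.7 TPM against 34.3 and 40.8 TPM. This sum was not corrected for transcript length. Between littermates, the library with the higher stromal sum also had the higher MCM sum in 6 of 6 pairs, and the higher sum of the 13 mitosis and mitotic cyclin genes in 6 of 6, a pattern chosen after the values were seen. The 13 genes leave out Mki67 and Stmn1, and the MCM sums of litter 2 were close (18.8 and 18.5 TPM). In litter 2 the stromal sum was 49.3 TPM in ErbB4myeKO and 16.7 TPM in ErbB4FF, and the mitosis sum 19.9 and 11.9 TPM. In litter 4 the stromal sum was 42.8 and 72.8 TPM, and the mitosis sum 17.6 and 22.1 TPM. All of these sums were higher in the ErbB4myeKO library of litters 2, 5 and 6 and lower in that of litters 1, 3 and 4, so that they moved together within pairs but in no common direction with the labels. This depended on the genes summed. Over all 11 mitosis genes, Mki67 and Stmn1 included, the sum was higher in ErbB4myeKO in litters 1, 2 and 4 and lower in litters 3, 5 and 6. The sum of the 8 licensing genes was lower in ErbB4myeKO in litter 2 (25.6 against 28.3 TPM). Of 8 neutrophil markers 3 passed the filter, with sums between 3.39 and 32.2 TPM in ErbB4myeKO and between 4.61 and 24.4 TPM in ErbB4FF libraries. Litter 5 was highest in this sum, through Ngp and Camp, while Ly6g, Elane and Prtn3 were at 0 in 8, 9 and 11 of 12 libraries. The part of these cells in the litter differences and in the differences between littermates was not tested.

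Other genes of the same processes were tested for genotype likewise. None of 21 tested replication genes (of 35), 15 tested mitosis genes (of 42) or 17 tested regulators (of 28) passed an adjusted p of 0.05. An unadjusted p under 0.05 was found in 1, 2 and 1 genes of these lists, each lower in ErbB4myeKO, against 4.38% of all genes in that direction. They were Rfc3, a clamp loader subunit (-0.23 ± 0.10, p = 0.0423), Pttg1, the securin that holds separase (-0.36 ± 0.11, p = 0.0129), Bub3 of the spindle checkpoint (-0.16 ± 0.07, p = 0.0437), and Tfdp1, the DNA-binding partner of E2F factors (-0.46 ± 0.13, p = 0.00957), each with an adjusted p of 0.603 and an exact permutation p of 0.0625 or 0.0312. Tfdp1 was 10.1, 11.3, 10.3, 6.56, 8.88 and 8.81 TPM in ErbB4myeKO and 15.0, 15.1, 13.6, 14.3, 9.11 and 11.1 TPM in ErbB4FF libraries. Tfdp1 and Bub3 were lower in every litter, and without litter 6 Tfdp1 was at -0.49 and Bub3 at -0.17 (adjusted p = 0.767). With the highest transcript of each gene alone, Tfdp1 was at -0.20 (adjusted p = 0.937). Without litter 6, Rfc3, Pttg1, Gins4 and Btg1 were at -0.19, -0.35, -0.21 and 0.10. Gins4, a GINS subunit, and Btg1, which restrains proliferation, were at -0.21 ± 0.09 (p = 0.0543) and 0.13 ± 0.06 (p = 0.0909), with exact permutation p of 0.0938 and 0.0625. The litter test passed in 7, 7 and 5 genes of the 3 lists, or 33.3%, 46.7% and 29.4% of those tested, against 44.9% of all genes.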

How the data were processed

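PolyA RNA of 12 M1-activated BM-Mɸ cultures was sequenced by the study with a stranded kit and single-end reads. The authors pseudoaligned reads with kallisto and deposited TPM for APPRIS principal transcripts. The submitters' processing notes name CASAVA, kallisto, sleuth and mm10; kallisto's version is not given in the sources used here. The table's columns of the authors' own sleuth comparison (fold changes, p-values, means and variances) were not used. The listed transcripts held between 59% and 74.7% of each library's TPM.

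After 405 repeated lines were dropped, TPM of 28808 transcripts were summed over 22243 genes. The 8780 genes whose mean reached 1 TPM were fitted on log2(TPM + 0.5), where low genes' fold changes are understated, with limma 3.58.1 in R 4.3.3 (trend, litter as block, genotype, Benjamini-Hochberg, threshold 0.05), with an F test of litter. The study adjusts for litter and sex, and sex is not on the labels. Littermates came from the design text and correlated after removal of group means (r between 0.273 and 0.774). Single genes were tested by two-sided exact permutation over 64 swaps within litters. Genotype p-values set the mean ratio against the spread of the within-litter ratios over litters. The litter F test sets the spread between litters against the spread left within litters after genotype. A count test was not used, since TPM carry no depth. The fit was tested on simulated data.

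Genes named in full were the 3 with the highest mean, the smallest genotype p in each of 8 role groups, the 5 smallest litter p, and Mcm5, E2f1, Cdkn1a, Ccnd1 and Mki67, and, from each other list, the 2 smallest genotype p. Members and lists were chosen with earlier results of these data known. Positions and transcript lengths are from GENCODE M21 (GRCm38), promoters from RefSeq. Python 3.11.15 with numpy 2.4.6, pandas 2.3.3 and matplotlib 3.10.9 was used.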

Additional observations from a re-analysis of the deposited data

Results flagged for a closer look

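Within each genotype, the highest or lowest of the 6 libraries was set against the rest for the 37 tested genes (74 sets), by Dixon's ratio of the gap to the nearest library to the whole range on the log2 scale and its 95% critical value. Chance flags about 5% of sets, and 6 of 74 were flagged, 3 of them in litter 5 and 3 in litter 3. In litter 5 Cdk6 was low in both genotypes, with 4.28 TPM against 7.36 TPM in the next ErbB4myeKO library (ratio 0.682) and 3.45 TPM against 7.68 TPM in the next ErbB4FF library (ratio 0.778), and Rfc5 was high in the ErbB4myeKO library, with 7.42 against 3.26 TPM (ratio 0.775). In litter 3 Ccnd1 was low in the ErbB4FF library, with 3.64 against 11.1 TPM (ratio 0.722), while in the ErbB4myeKO library Mcm7 was low, with 0.645 against 2.59 TPM (ratio 0.679), and Rb1 was high, with 8.84 against 5.42 TPM (ratio 0.661).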

How the results depend on the processing

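The genotype and litter counts and the ratios of named genes were recomputed under other pseudocounts (0.1 and 1), filters (none and a mean of at least 5 TPM), scalings, transcript choice and model terms, and without each litter, and the Mcm5 transcripts under some of these. No member passed an adjusted p of 0.05 for genotype under any of these. Over all genes the count was 0, with 1 gene without litter 3 (range 0 to 1 over litters left out). Without the litter block 75 genes and 0 members had an unadjusted p under 0.05, in place of 721 and 2, as did 110 transcripts in place of 678. The block changed no adjusted call for genotype. Leaving out litters gave 413 to 864 genes and 0 to 3 members, with 413 genes and 1 member without litter 2, 458 and 0 without litter 4. The median ratio of members lay between -0.08 and 0.01 without each litter. Of the 721 genes, 336 were higher and 385 lower in ErbB4myeKO, and with libraries set to the same total 436 were higher and 254 lower. Without litter 5 the litter test passed in 9 members and 1002 genes, in place of 21 and 3938 (ranges 9 to 21 and 1002 to 4092). With the level of Y-linked genes as a covariate, added after seeing the data, it passed in 5 members and 837 genes. Of 349 alternative ratios of 21 named genes 3 changed sign, each without 1 litter: Cdkn1a (-0.0061 without litter 2, range -0.0061 to 0.13), Pcna (0.025 without litter 6, range -0.098 to 0.025) and Mcm5 (-0.026 without litter 5, range -0.026 to 0.12). Of 217 alternative litter tests of 15 named members 14 lost and 2 gained the call. The median over members of the mean level was 3.25 TPM. Precision is limited by 6 litters, and depth could not be read from TPM.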
